A study of Homo sapiens with 6 samples.

Results

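The 10 genes described here encode interferon ligands and the chains of interferon receptors. They were picked by name, with earlier results of these data known, out of 60835 distinct gene symbols. They comprise the type III (lambda) ligand genes IFNL1, IFNL2 and IFNL3, the type I ligand gene IFNB1 and 6 receptor chains. The cells were PANC-1, an established human line of pancreatic epithelioid carcinoma, with SMAD4 knocked out in every library; SMAD4 is the partner that receptor-activated SMADs share. The tested cells received SMAD4 with the R272K change (3 libraries) and the comparison cells received wild-type (WT) SMAD4 (3 libraries), all on day 3, with polyadenylated RNA sequenced in bulk. The series is about methylation of SMAD4 on arginine by PRMT1. The comparison asks which transcripts differ when lysine stands in place of the arginine. No library of knockout cells without introduced SMAD4 was analysed here, and nothing in the labels shows whether the replicates were separate cultures or clones, so p-values measure the spread between these libraries, which may be technical. The cells were transfected, and how many of them carried the introduced SMAD4 is not stated in the labels.

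Library totals lay between 15148435 and 15406781 counts in the R272K group and between 14776148 and 17706201 in the WT group. SMAD4 itself stood at 43.3 ± 2.56 CPM with R272K and 88.7 ± 5.13 CPM with WT (counts per 1000000 counts on TMM-scaled library sizes; SD, n = 3 each), so the amount of SMAD4 transcript and the R272K change cannot be told apart. In a principal component analysis WT replicate 1 lay away from the other libraries (31.3 on component 1, where the others ranged from -15.6 to 9.56). The summed level of 5 epithelial markers was 4714 to 5185 TPM (the authors' deposited length-scaled level, per 1000000 transcripts) with R272K and 3935 to 4445 TPM with WT. Most of that sum was KRT8, at 3077 TPM with R272K and 2420 TPM with WT in the mean, and KRT18, at 1525 and 1390 TPM. KRT19 stood at 299 and 315 TPM, EPCAM at 9.73 and 7.33 TPM and KRT7 at 7.36 and 7.81 TPM. Of 5 leukocyte markers 1 (CD14) passed the filter on low counts, and of 3 endothelial and 3 fibroblast markers 0 passed. The summed leukocyte markers reached at most 6.91 TPM with R272K and 6.39 TPM with WT. No marker was at 0 counts over all 6 libraries, although CD3E had 1 count in total.

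Interferons are secreted antiviral cytokines. Type I interferons bind a receptor made of IFNAR1 and IFNAR2, type III interferons one made of IFNLR1 and IL10RB, and interferon gamma one made of IFNGR1 and IFNGR2. Type I and type III receptors both act through the kinases JAK1 and TYK2, and they switch on largely the same antiviral genes; lambda interferons act mainly on epithelial cells. The ligand genes are themselves switched on when sensors of foreign nucleic acid activate interferon regulatory factors (IRFs) and NF-κB.

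The lambda genes lie together on chromosome 19 (GRCh38): IFNL1 (ENSG00000182393) at chr19:39296407-39298673 on the plus strand, IFNL2 (ENSG00000183709) at chr19:39268396-39270188 on the plus strand and IFNL3 (ENSG00000197110) at chr19:39243455-39245250 on the minus strand. IFNB1 (ENSG00000171855) is at chr9:21077104-21077942 on the minus strand. The 250 bases before each start are shown because these genes were lower together or, for IFNB1, had too few counts to be tested. They are from RefSeq (GRCh38.p14), 5′ to 3′ on the gene's strand, with every match on either strand to AANNGAAA, the core that IRFs bind, in capitals.
IFNL1, chr19:39296157-39296406, plus strand: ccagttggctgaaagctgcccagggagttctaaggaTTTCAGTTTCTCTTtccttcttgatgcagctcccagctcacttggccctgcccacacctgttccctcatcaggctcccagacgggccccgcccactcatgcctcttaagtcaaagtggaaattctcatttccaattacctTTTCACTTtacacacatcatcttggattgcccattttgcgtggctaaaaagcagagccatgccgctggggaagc
IFNL2, chr19:39268146-39268395, plus strand: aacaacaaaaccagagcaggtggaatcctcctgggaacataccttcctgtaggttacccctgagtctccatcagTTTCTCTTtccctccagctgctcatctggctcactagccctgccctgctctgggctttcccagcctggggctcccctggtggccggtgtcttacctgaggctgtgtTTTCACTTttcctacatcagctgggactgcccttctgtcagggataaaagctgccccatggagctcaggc
IFNB1, chr9:21077943-21078192, minus strand: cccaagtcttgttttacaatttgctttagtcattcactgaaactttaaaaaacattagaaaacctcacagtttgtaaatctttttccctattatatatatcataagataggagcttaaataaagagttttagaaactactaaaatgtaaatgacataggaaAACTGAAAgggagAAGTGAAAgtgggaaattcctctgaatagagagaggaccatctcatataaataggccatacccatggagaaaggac

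The IFNL3 window differed from that of IFNL2 at 1 base, C31T (IFNL2 base first, counted from 1 at the 5′ end). IFNL1 held 3 matches to AANNGAAA, of which 2 overlap, IFNL2 and IFNL3 held 2 each, and IFNB1 held 2. Across 35116 promoter windows of the same length 20.3% held at least 1 match, 4.54% held 2 or more and 0.92% held 3 or more. The core of the interferon-stimulated response element (GAAA, any 2 bases, GAAA, read on both strands) overlaps that motif. It occurred at 2 overlapping positions in IFNL1, at 1 in IFNL2 and IFNL3 each, and at 0 in IFNB1. Of all windows 3.02% held at least 1 and 0.225% held 2 or more. The form of an NF-κB site (GGG, any 5 bases, CC) was found at 3 positions in each lambda window and at 2 in IFNB1. Of the 3 in IFNL1, 2 overlap on opposite strands. At least 1 was held by 54.4% of windows, 2 or more by 32.7% and 3 or more by 18.4%. Neither TGANTCA (an AP-1 site, 6.57% of windows) nor GTCTAGAC (a palindrome bound by SMADs, 0.182% of windows) was matched in any of the 4. These matches describe letters and are no evidence of binding.

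All 3 lambda genes were lower in cells with R272K SMAD4, at between 0.27 and 0.29 of their WT level. Without a library of knockout cells alone, a fall with R272K and a rise with WT SMAD4 cannot be told apart. IFNL1 stood at 6.89, 8.12 and 6.90 CPM in the R272K libraries, against 29.5, 26.8 and 22.1 CPM in the WT libraries. Every R272K library lay below every WT library, and the lowest WT value was that of replicate 3. In bulk RNA such as this, fewer cells that express a gene and less of its RNA per cell cannot be told apart. The mean was 7.31 ± 0.704 CPM with R272K and 26.2 ± 3.74 CPM with WT (SD, n = 3 each). On the log2 scale R272K over WT was -1.84 (SE 0.128, 95% interval -2.12 to -1.56, edgeR's quasi-likelihood test with Benjamini-Hochberg adjustment, adjusted p = 4.91e-06).

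IFNL2 measured 2.95, 2.26 and 2.15 CPM with R272K and 9.18, 8.72 and 7.47 CPM with WT. Its log2 fold change was -1.78 (SE 0.172, adjusted p = 8.11e-05 by edgeR). IFNL3 measured 2.43, 3.59 and 3.65 CPM with R272K and 13.4, 11.02 and 11.9 CPM with WT, and its log2 fold change was -1.91 (SE 0.163, adjusted p = 2.75e-05 by edgeR). For both, the groups did not overlap. The 95% intervals of the 3 lambda genes overlapped one another.

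Of the 9 members that passed the filter on low counts, these 3 were called lower (adjusted p below 0.05) and 0 were called higher by edgeR, and DESeq2 and limma-voom gave the same 3 and 0. Among all 15911 genes tested, 0.528% were called lower and 0.685% higher, 1.21% in either direction. Each lambda gene was both called and at least 2-fold lower, which held for 0.145% of all genes tested. Ranked by fold change from the lowest, IFNL3 was at place 3, IFNL1 at place 6 and IFNL2 at place 8 of the 15911. Because the members were chosen with earlier results of these data known, these counts and places are descriptions only.

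**Figure D1:**
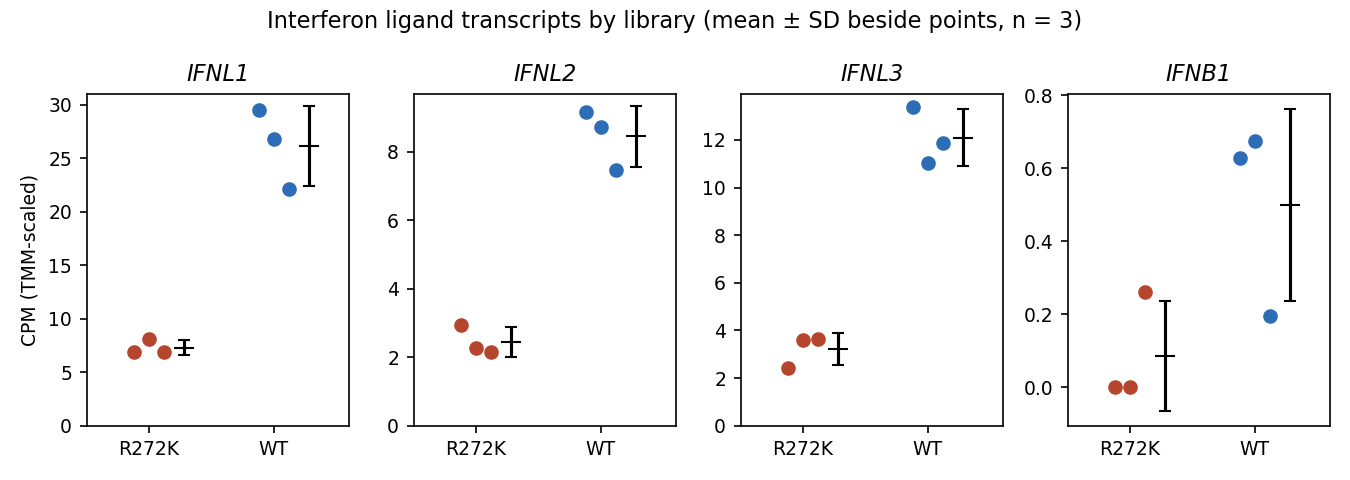
Levels of the 4 interferon ligand genes in CPM (y axes, a scale for each gene), R272K libraries left and WT libraries right, with each library as a point and mean ± SD beside them. For the lambda genes the R272K points lie below all WT points, whereas for IFNB1, at under 1 CPM, the groups overlap.

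IFNL2 and IFNL3 are near-identical, which bears on how reads were divided between them. Their transcripts (GENCODE 29) were 97.6% identical, 32% of the 50-base windows of IFNL2 and 5.17% of its 100-base windows also occurred in IFNL3, and 0 of its 150-base windows did. IFNL1 was 65.9% identical to IFNL2 and shared no 50-base window with it, so its value does not depend on that division. How reads that match both IFNL2 and IFNL3 were treated is not stated in the labels. If they were left out, the levels of IFNL2 and IFNL3 and their places in TPM would be too low. The IFNL1 share would then be too high, which was not tested. With the counts of IFNL2 and IFNL3 summed before the fit, the sum had a log2 fold change of -1.86, close to both single values. IFNL1 gave 54.4% to 58.1% of the summed lambda counts with R272K and 53.4% to 57.6% with WT, a difference of 0.33 percentage points (exact permutation p = 0.8, two-sided). The shares of the near-identical pair varied more among the R272K libraries, which had fewer counts, and were not tested. IFNL2 gave 16.2% to 24.1% with R272K and 17.6% to 18.8% with WT, and IFNL3 gave 19.8% to 28.7% with R272K and 23.7% to 28.6% with WT. IFNL3 had the larger share of the pair in every library except R272K replicate 1.

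The summed lambda counts came to 12.3, 14.0 and 12.7 CPM in the R272K libraries and 52.1, 46.5 and 41.5 CPM in the WT libraries. No division of reads among the lambda genes can alter this sum, but leaving shared reads out of the counts would lower it. The groups did not overlap, and the exact permutation test gave p = 0.1, the smallest that 3 against 3 libraries allow. Entered as 1 feature in the edgeR fit in place of its 3 parts, the sum had a log2 fold change of -1.85 (adjusted p = 4.24e-07). Without WT replicate 1 the difference in mean log2 CPM of the sum was -1.76, against -1.84 with all libraries.

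IFNB1, which encodes interferon beta, was near the limit of detection. It had 0, 0 and 4 counts in the R272K libraries and 11, 10 and 3 in the WT libraries, which is 0, 0 and 0.261 CPM against 0.627, 0.676 and 0.197 CPM. R272K replicate 3 lay above WT replicate 3, so the groups overlapped (exact permutation p = 0.2, two-sided). Over the groups, 4 counts against 24 give a ratio of 0.174, with an exact 95% interval from 0.0439 to 0.506 that covers counting error only. IFNB1 did not pass the filter on low counts. In a fit with no filter, over 36623 genes, its log2 fold change was -2.42 with an adjusted p of 0.141 (edgeR), so it was not called.

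The other interferon ligand genes gave little or no signal. Of 18 of them, 1 passed the filter. That gene was IFNE, an epithelial type I interferon, at 1.71 ± 0.0998 CPM with R272K and 1.91 ± 0.344 CPM with WT (SD, n = 3 each; log2 fold change -0.16, adjusted p = 0.815 by edgeR). The 13 IFNA genes had 13 counts in the R272K libraries and 8 in the WT libraries in all, with at most 4 counts for any 1 gene over the 6 libraries. IFNL4, the lambda gene next to IFNL3, had 7 counts with R272K and 6 with WT. IFNG, the sole ligand of the interferon gamma receptor, was at 0 counts in all 6 libraries, and so were IFNK, IFNA4, IFNA10 and IFNA21.

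**Figure D2:**
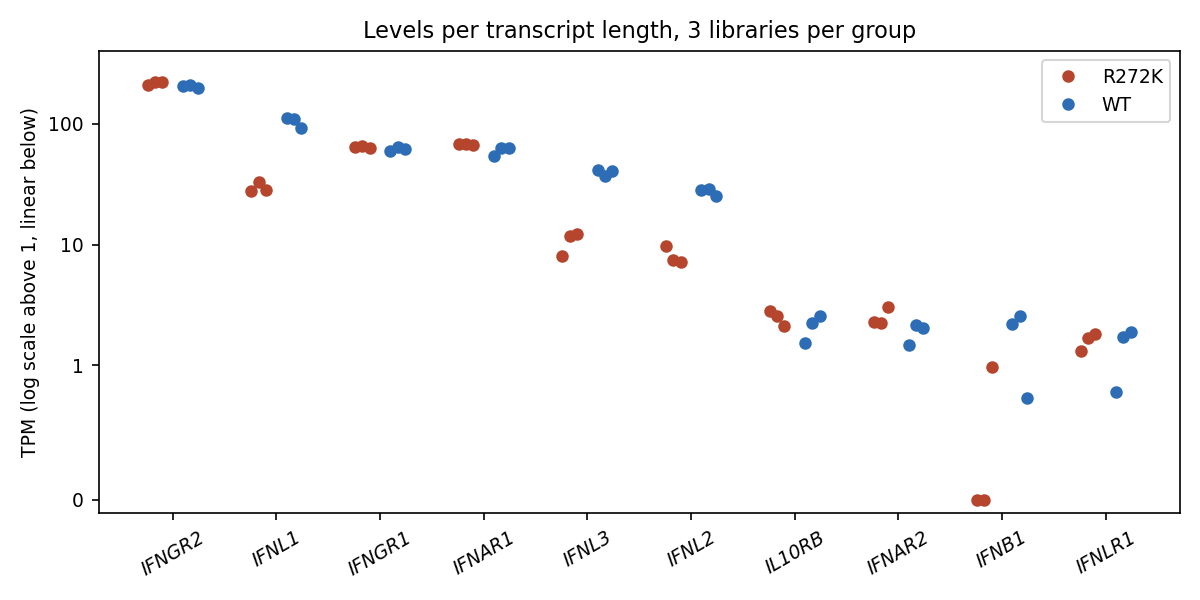
Levels per transcript length in TPM (y axis, logarithmic above 1 and linear below) of the 10 genes, ordered by their mean in WT libraries, with R272K libraries left of WT libraries for each gene and each library as a point. IFNGR2 is highest in both groups, and IFNLR1, IFNB1, IFNAR2 and IL10RB all lie near 1 to 3 TPM or below.

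Levels of different genes were set side by side in TPM. With R272K the order from the highest was IFNGR2 at 217.0 ± 6.90 TPM, IFNAR1 at 67.5 ± 0.541 TPM, IFNGR1 at 64.4 ± 1.43 TPM, IFNL1 at 29.7 ± 2.63 TPM, IFNL3 at 10.7 ± 2.31 TPM and IFNL2 at 8.13 ± 1.41 TPM (SD, n = 3 each). Below them came IFNAR2 at 2.52 ± 0.451 TPM, IL10RB at 2.50 ± 0.349 TPM, IFNLR1 at 1.604 ± 0.265 TPM and IFNB1 at 0.330 ± 0.572 TPM. Of these neighbours, IFNL3 overlapped IFNL2 and IFNAR2 overlapped IL10RB in their range over libraries. With WT, IFNL1 took second place, at 104.4 ± 10.4 TPM, above IFNGR1 at 61.5 ± 2.40 TPM and IFNAR1 at 59.8 ± 5.34 TPM, whose ranges overlapped. IFNL3 (39.3 ± 2.44 TPM) and IFNL2 (27.6 ± 1.90 TPM) followed, and IL10RB, IFNAR2, IFNB1 and IFNLR1, between 2.12 and 1.48 TPM in the mean, each overlapped the next in that order.

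No receptor chain was called by edgeR, DESeq2 or limma-voom. All 6 estimates were above 0, while the median log2 fold change over all genes tested was -0.00112. Of the 6, 2 (IFNAR1 and IFNAR2) had an unadjusted p below 0.05 by edgeR, as did 7.18% of all genes on that side. IFNLR1 (ENSG00000185436, chr1:24154168-24187959, minus strand), the chain specific to lambda interferons, stood at 1.90, 2.46 and 2.61 CPM with R272K and 1.26, 2.50 and 2.69 CPM with WT. The groups overlapped, and WT replicate 1 was the lowest library. The log2 fold change was 0.13 (95% interval -0.49 to 0.75, edgeR adjusted p = 0.873), which leaves room for a change to 0.713 or to 1.68 times the WT level at this depth. Without WT replicate 1 it was -0.16. IL10RB (ENSG00000243646, chr21:33266367-33311420, plus strand), the partner chain that the receptors for interleukin 10, interleukin 22 and interleukin 26 also use, stood at 3.68, 3.39 and 2.74 CPM with R272K and 2.17, 2.91 and 3.28 CPM with WT. Again the groups overlapped (log2 fold change 0.24, 95% interval -0.23 to 0.71, edgeR adjusted p = 0.658), and without WT replicate 1 the value was 0.08.

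IFNAR1 (ENSG00000142166, chr21:33324387-33359864, plus strand) was the more abundant chain of the type I receptor. It measured 133.5, 133.9 and 129.4 CPM with R272K and 113.1, 121.9 and 120.6 CPM with WT, with every R272K library above every WT library. The log2 fold change was 0.16 (95% interval 0.03 to 0.29), with an unadjusted p of 0.0234 and an adjusted p of 0.262 by edgeR, so it was not called. IFNAR2 (ENSG00000159110, chr21:33205282-33265675, plus strand), which binds type I interferon with high affinity, measured 6.56, 6.45 and 8.60 CPM with R272K and 4.56, 6.15 and 5.70 CPM with WT. The groups did not overlap here either, and R272K replicate 3 was the highest (log2 fold change 0.40, 95% interval 0.05 to 0.76, edgeR adjusted p = 0.284). Leaving out WT replicate 1 gave 0.28 and leaving out R272K replicate 3 gave 0.26. Of the 6 receptor chains these 2 had R272K libraries wholly above WT libraries, as did 10.9% of all genes tested; for R272K wholly below WT, which held for the 3 lambda genes, the share was 10.4%.

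Neither chain of the interferon gamma receptor was called. IFNGR1 (ENSG00000027697, chr6:137197483-137219449, minus strand), the chain that binds the ligand, measured 51.7, 53.1 and 49.7 CPM with R272K and 50.9, 50.9 and 47.8 CPM with WT (log2 fold change 0.05, 95% interval -0.10 to 0.20, edgeR adjusted p = 0.81). IFNGR2 (ENSG00000159128, chr21:33403413-33479348, plus strand), the chain that brings in JAK2, measured 116.1, 123.8 and 120.2 CPM with R272K and 121.8, 115.7 and 105.3 CPM with WT (log2 fold change 0.07, 95% interval -0.08 to 0.22, edgeR adjusted p = 0.689). The groups overlapped for both, and the intervals hold no change beyond 1.17 times the WT level upward or 0.93 times downward.

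**Figure D3:**
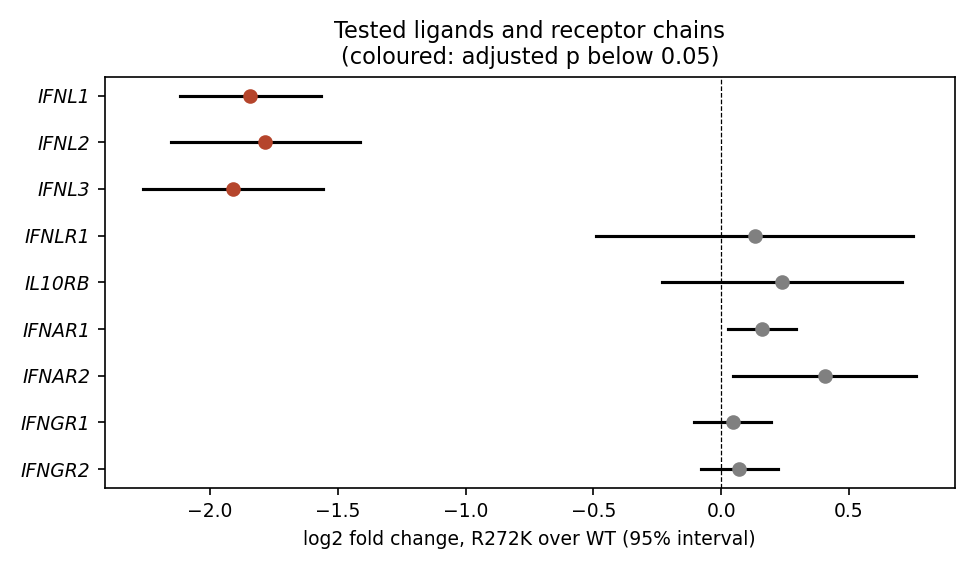
Log2 fold change of R272K over WT (x axis) with its 95% interval for the 9 members tested, coloured where the adjusted p was below 0.05. The 3 lambda ligands lie between -1.91 and -1.78, and the 6 receptor chains between 0.05 and 0.40.

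Annotated genes overlap 4 of the receptor genes. A read-through gene, AP000295.1, spans IFNAR2 and IL10RB on the same strand and was listed at 0 counts in all 6 libraries. In GENCODE 29, 44.2% of the exonic bases of IFNAR2 and 38.1% of those of IL10RB also belong to it. The low levels of these 2 chains, and their place in the order of TPM, are therefore uncertain, and whether reads in shared exons were set aside in counting was not tested. IFNGR2 shares 12.8% of its exonic bases with TMEM50B on the other strand, which had a log2 fold change of 0.01 (edgeR adjusted p = 0.985), and the strand setting of the counting is not stated in the labels. The pseudogene USF1P1 inside IFNAR1 and the noncoding gene IL10RB-DT that overlaps IFNAR2 on the other strand had 3 and 4 counts over the 6 libraries. Whether USF1P1 or IL10RB-DT shares exonic bases with these chains was not measured.

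Downstream of the receptors, of 8 inhibitors of receptor signalling 0 were called by edgeR, DESeq2 or limma-voom, and 1 had an unadjusted p below 0.05, as did 14.3% of all genes tested (median log2 fold change -0.02, against 0.00 over all genes tested). It was USP18, which blocks signalling at IFNAR2, at 8.70 ± 0.16 CPM with R272K and 12.1 ± 1.18 CPM with WT (log2 fold change -0.48, edgeR adjusted p = 0.0724). It was called without WT replicate 1 (0.0109), with no filter (0.033) and with the gene length trend removed (0.0352), each an adjusted p by edgeR.

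Upstream of the ligands, 18 sensors, adaptors, kinases and transcription factors that induce or repress interferon genes were tested. Of these, 2 were called lower, 0 were called higher and 16 were not called (median log2 fold change 0.00). Among all genes tested, 0.528% were called lower and 0.685% higher. In the list 6 genes had an unadjusted p below 0.05 by edgeR, as did 14.3% of all genes tested. Among them IFIH1, IRF7 and RELA (log2 fold change -0.20) were lower with R272K. IKBKE (0.25), NFKB1 (0.16) and PRDM1 (0.73) were higher, and none of these was called. RELA and NFKB1 both encode NF-κB subunits (RELA, IKBKE, NFKB1 and PRDM1 named after their values were seen). IFIH1, which encodes the RNA sensor MDA5, stood at 71.0 ± 1.66 CPM with R272K and 95.7 ± 4.75 CPM with WT (SD, n = 3 each; log2 fold change -0.43, edgeR adjusted p = 0.00544). IRF7, a factor that drives interferon genes, stood at 14.97 ± 2.04 CPM with R272K and 21.8 ± 2.57 CPM with WT (log2 fold change -0.54, edgeR adjusted p = 0.0487). Interferon induces both genes as well. The count of 2 became 0 on TPM and without R272K replicate 1 or R272K replicate 3. It became 1, with IRF7 lost, with limma-voom, upper quartile scaling or a filter at 1 CPM and without R272K replicate 2 or WT replicate 2 (adjusted p of IRF7 from 0.0523 to 0.224). Without WT replicate 1 it was 3, with RELA added.

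Targets of type I and type III interferon were lower with R272K, as the lambda ligands were. Of 9 tested, 8 were called lower, 0 were called higher and 1 was not called, with a median log2 fold change of -1.30. The count was 8 lower whichever library was left out, and 7 lower on TPM. Of all genes tested, 0.528% were called lower and 0.685% higher. Each pathway list was chosen with earlier results of these data known, so its counts are descriptions and no independent support. The IFIT genes encode proteins that restrain viral RNA. IFIT2 had a log2 fold change of -1.66 (edgeR adjusted p = 2.14e-08), IFIT1 one of -1.62 (1.36e-07) and IFIT3 one of -1.27 (3.82e-06). IFI6, an interferon-induced mitochondrial protein, stood at 12.9 ± 0.463 CPM with R272K and 45.1 ± 8.42 CPM with WT (log2 fold change -1.80, edgeR adjusted p = 4.91e-06). Of 9 tested targets that respond mainly to interferon gamma, 1 was called lower, 0 were called higher and 8 were not called, with a median log2 fold change of -0.03. Depth limits part of this list. CXCL11 stood at 0.419 CPM with R272K and 0.671 CPM with WT, with a 95% interval of -1.86 to 0.50 on the log2 scale. WARS1 stood at 75.6 and 78.4 CPM (both genes named after their values were seen). The gene called lower was GBP5, a guanylate-binding protein of antimicrobial defence, at 0.482 ± 0.211 CPM with R272K and 1.61 ± 0.168 CPM with WT (SD, n = 3 each; log2 fold change -1.71, edgeR adjusted p = 0.0359). The count was 0 on TPM and when any library other than WT replicate 1 was left out. It was also 0 with DESeq2, where no adjusted p is listed for GBP5. Of 6 further ligands and chains that use IL10RB, 1 was tested: IL22RA1, the interleukin 22 receptor chain, stood at 4.36 ± 0.339 CPM with R272K and 4.43 ± 0.364 CPM with WT (edgeR adjusted p = 0.964).

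**Figure D4:**
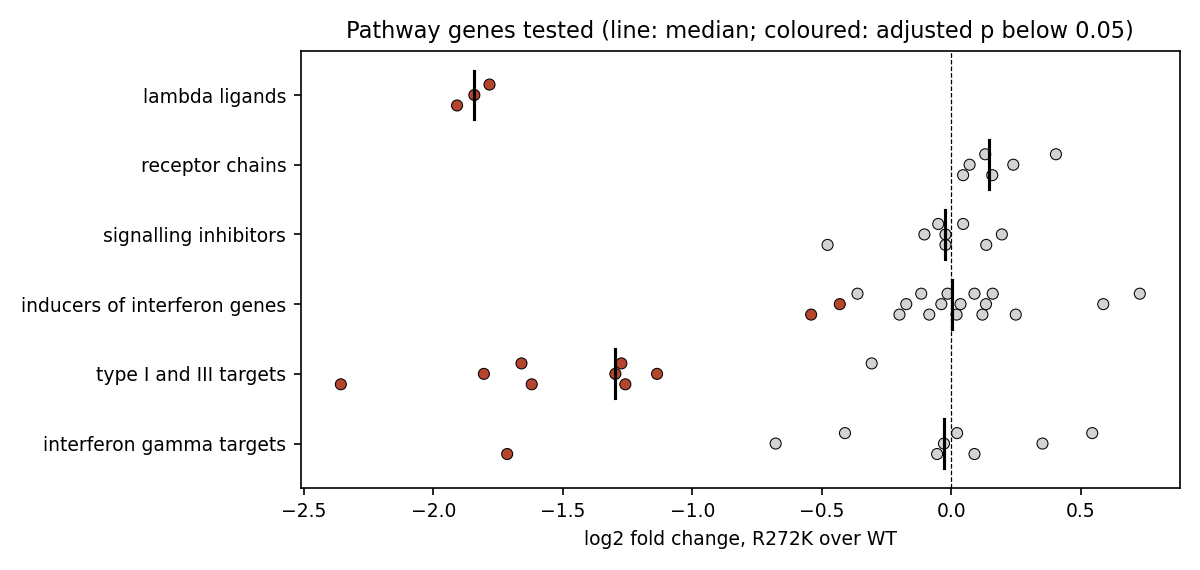
Log2 fold change of R272K over WT (x axis) of each tested gene in the lambda ligands, the receptor chains and 4 lists of pathway genes, with the median as a line and colour where the adjusted p was below 0.05. The lambda ligands and the type I and III targets (median -1.30) lie to the left of 0, and the medians of the other groups lie near it.

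Outside the 10 members, the genes whose levels across the 6 libraries were most like IFNL1 were IFI6, IFIT1, IFIT2, OASL and TXNIP. Likeness was the root mean square difference in log2 CPM after centring each gene on its own mean, over 14480 genes with at least 1 CPM. It was 0.11 for IFI6, 0.16 for IFIT1, 0.17 for IFIT2, 0.18 for OASL, an oligoadenylate synthetase-like protein, and 0.19 for TXNIP, an inhibitor of thioredoxin. The median gene had 0.93. Among the members, the same measure was 0.186 for IFNL2, nearer than TXNIP at 0.189, and 0.199 for IFNL3. TXNIP, which belongs to none of the pathway lists, stood at 16.1, 16.6 and 17.6 CPM with R272K and 51.5, 48.4 and 48.7 CPM with WT. The measure is a description, and most of it comes from the difference between the groups that these libraries share.

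**Figure D5:**
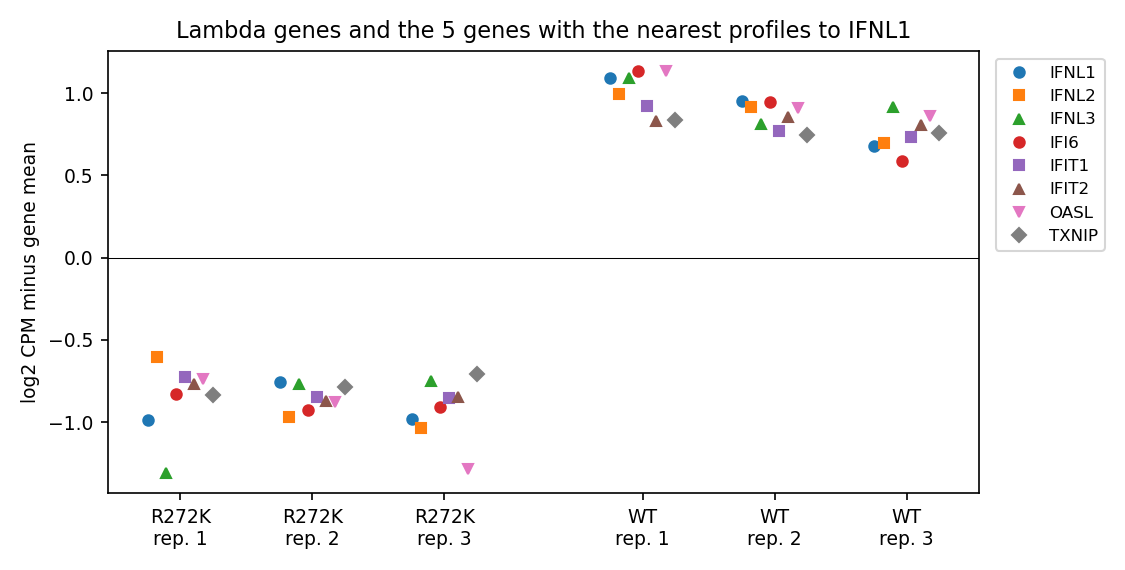
Log2 CPM minus the gene's own mean (y axis) in each library (x axis, R272K left and WT right) for the lambda genes and the 5 genes nearest to IFNL1. All points of the R272K libraries lie below 0 and all points of the WT libraries above it, and IFNL3 in R272K replicate 1 is the lowest point, at -1.31.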

How the data were processed

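The tools fastp 0.23.0, HISAT2 2.1.0, SAMtools, HTSeq 0.10.0 and the build GRCh38 are named in the submitters' processing notes, without roles or settings. The deposited tables give raw counts for each gene symbol and the authors' TPM, a normalised level of another unit, for the same libraries. Both hold 62710 lines for 60835 symbols, each used once. Members and pathway lists were chosen with earlier results of these data known.

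edgeR 4.0.16 was used: its filter on low counts (minimum 10, minimum total 15) left 15911 genes, library sizes were TMM-scaled, and a robust quasi-likelihood model with group as the only term was tested on both sides. P-values were adjusted by Benjamini-Hochberg over all genes tested, with a call below 0.05. SE is the absolute log2 fold change over the square root of F. The fit was tested on simulated data. Named genes were the members, SMAD4, overlapping genes, up to 4 called genes of each list (otherwise the smallest p) and the 5 genes nearest to IFNL1. 1 pathway list is not reported here. Alternatives used other scalings and filters, DESeq2 1.42.0, limma 3.58.1, TPM, summed lambda genes, a length correction, a replicate block and leaving out each library. Promoters and transcripts were compared with Biopython 1.88.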

Additional observations from a re-analysis of the deposited data

How the results depend on the processing

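The 3 lambda genes were called lower and 0 members higher under other scalings, filters and tools, with TPM, with the gene length trend removed, and without each library in turn (3 to 3 lower, 0 to 0 higher). With IFNL2 and IFNL3 summed 2 features were called lower, and with all 3 summed 1, because that many lambda features were left. Over these alternatives the log2 fold change ran from -1.95 to -1.74 for IFNL1, from -1.94 to -1.65 for IFNL2 and from -2.01 to -1.74 for IFNL3. Of 166 member values under alternatives, all kept their side of the threshold and 1 changed sign, that of IFNLR1 without WT replicate 1 (-0.16). The summed lambda level differed by -1.76 to -1.93 on the log2 scale when 1 library was left out, and replicate numbers as a block left it at -1.84 (exact permutation p = 0.25, the smallest possible with 3 pairs). The replicate numbers gave no sign of pairing (correlations of same-numbered libraries -0.065, -0.00715 and -0.012); with that block 262 genes were called in place of 193, with 3 members lower and 0 higher. Over all genes, 279 were called with DESeq2, 474 with no filter, 619 with the length trend removed, 104 on log2(TPM + 1), 101 on log2(TPM + 0.1) and 55 to 875 without 1 library; the cause was not tested. Depth limits IFNB1, IFNLR1 and IL10RB in both groups, and IFNL2 and IFNL3 with R272K, all at under 4 CPM.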
